A study of Mus musculus with 6 samples.

Results

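The genes described here encode 3 linked vasoactive systems of the lung: endothelin (Edn1, its converting enzyme Ece1 and the receptors Ednra and Ednrb), angiotensin (the converting enzyme Ace and the receptor Agtr1a) and adrenomedullin (Adm and the receptor parts Calcrl and Ramp2). They were chosen by symbol, all 9 were present among the 23194 genes of the deposited table, and all 9 passed the filter on low counts. The RNA came from left lungs, taken whole, of C57BL/6 mice that were adult and wild type. In the injured group (n = 3) the left pulmonary artery had been tied for 4 h and the lung reperfused for 24 h, while the naive group (n = 3) is described only as controls. No operated group without ligation was analysed here, so operation and ischemia cannot be told apart. Nothing in the labels gives the sex of the mice or the hour of collection. Libraries held 18913487 to 34986276 gene counts.

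Endothelin-1 is a constrictor peptide made mainly by endothelium. It is cut from its precursor by Ece1, acts on smooth muscle through Ednra, and is cleared by Ednrb, which also releases dilators from endothelial cells. Angiotensin converting enzyme, encoded by Ace, sits on lung capillary endothelium, makes angiotensin II from angiotensin I and degrades the dilator bradykinin, and Agtr1a is the main angiotensin II receptor of rodent vessels. Adrenomedullin is a dilator peptide that tightens the endothelial barrier, and its receptor is made of Calcrl, a G protein-coupled receptor, and its partner Ramp2.

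After injury the clearest difference in these systems was in Ace, which averaged 2225 ± 173 CPM in injured lungs and 1464 ± 60.1 CPM in naive lungs (SD, n = 3 each), 1.52 times as much. CPM values are counts scaled to a common total, with library sizes adjusted by TMM. In whole lung, fewer or more cells of a type and less or more RNA per cell cannot be told apart. No other gene of the 9 passed the test. Agtr1a was lower and Calcrl higher in every injured lung than in every naive lung, by 0.28 log2 units each, but neither passed after adjustment over all genes. The peptide genes Edn1 and Adm and the endothelin receptors did not pass, and their injured and naive values overlapped. A gene was called at an adjusted p under 0.05 in edgeR's quasi-likelihood test, with Benjamini-Hochberg adjustment over 15486 genes. Of these, 3.11% were called, 2.16% higher and 0.956% lower in injured lungs, against 1 of the 9 genes here, and the 9 had a median log2 fold change of -0.02, against -0.00096 over all genes tested. Groups that did not overlap in CPM were seen for 22.9% of all genes tested and for 3 of the 9. By edgeR 2589 of the 15486 genes, and 3 of the 9, had an unadjusted p under 0.05.

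The 250 bases before the RefSeq start sites of Ace, Edn1 and Adm are shown because Ace was the gene that was called and the others encode the opposing peptides. Sequences are from RefSeq on GRCm38.p6, plus strand, 5′ to 3′, with capitals marking motif matches on either strand. The letters searched for were ACGTG and also GCGTG, both cores bound by hypoxia-inducible factors. The GC box was searched as GGGCGG. The AP-1 site was searched as TGANTCA, and the TATA box by the letters TATAAA. Of the 9 genes, 7 had an entry in the table of promoters. Ace has 2 start sites 7241 bases apart, the first for the form made in endothelium and the second, inside the gene, for the shorter form known from testis. The deposited counts are per gene and do not separate these forms. For Edn1, 206 of the 250 bases lie inside the counted gene, whose row in the deposited table starts before the RefSeq start, and 44 lie before it.
Ace first start, chr11:105967698-105967947: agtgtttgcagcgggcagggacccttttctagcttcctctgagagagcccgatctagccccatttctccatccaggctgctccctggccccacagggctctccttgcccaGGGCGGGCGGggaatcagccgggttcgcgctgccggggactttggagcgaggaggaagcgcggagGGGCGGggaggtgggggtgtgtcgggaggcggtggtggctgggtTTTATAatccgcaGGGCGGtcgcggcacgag
Ace second start, chr11:105974939-105975188: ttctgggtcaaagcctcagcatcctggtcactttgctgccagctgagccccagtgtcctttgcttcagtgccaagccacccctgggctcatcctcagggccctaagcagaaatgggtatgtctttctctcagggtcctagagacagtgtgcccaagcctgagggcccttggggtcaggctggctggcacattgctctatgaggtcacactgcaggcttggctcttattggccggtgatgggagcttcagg
Edn1, chr13:42301226-42301475: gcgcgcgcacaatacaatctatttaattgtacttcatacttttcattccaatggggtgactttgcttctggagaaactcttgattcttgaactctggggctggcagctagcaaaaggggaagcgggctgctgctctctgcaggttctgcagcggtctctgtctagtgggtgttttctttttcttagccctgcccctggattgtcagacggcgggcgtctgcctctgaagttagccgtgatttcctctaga
Adm, chr7:110627407-110627656: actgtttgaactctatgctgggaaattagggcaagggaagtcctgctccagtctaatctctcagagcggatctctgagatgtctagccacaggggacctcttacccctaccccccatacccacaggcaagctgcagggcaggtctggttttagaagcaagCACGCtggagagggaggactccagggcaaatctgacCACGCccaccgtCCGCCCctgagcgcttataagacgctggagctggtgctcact
The first Ace promoter held 4 GC boxes, of which the first pair overlap. It also matched the letters TATAAA at bases -31 to -26, read on the minus strand. Other spellings of the TATA box were not searched. The stretches before the second Ace start and before the RefSeq start of Edn1 held none of the motifs, and for Edn1 the bases before the start of the counted gene were searched only in the 44 shown. The Adm promoter held GCGTG at bases -90 to -86 and -54 to -50 and a GC box at -42 to -37, all on the minus strand. Among 32851 promoters of the same length, GGGCGG was present in 32.7%, GCGTG in 28.2%, ACGTG in 16.6%, TATAAA in 12.4% and TGANTCA in 6.75%.

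Per length, the 9 transcripts spanned a wide range of levels. In FPKM, the authors' value per length and library size, Ace averaged 456 ± 35.4 in injured lungs and 297 ± 13.98 in naive lungs (SD, n = 3 each). Its mean ranked 93rd of 23194 genes in injured lungs and 150th in naive lungs. At the deposited gene lengths the order of mean FPKM was the same in both groups: Ace, Calcrl, Ramp2, Ece1, Ednrb, Ednra, Edn1, Agtr1a and Adm. In injured lungs the levels of neighbours in this order did not overlap except for Agtr1a and Adm. In naive lungs Ace overlapped Calcrl and Calcrl overlapped Ramp2, and the other neighbours were apart. The place of Ramp2 depends on its length: at the 1178 bases of its longest coding transcript, set after the data were seen, it averaged 330.4 ± 54.4 FPKM in injured lungs and 314 ± 30.7 FPKM in naive lungs (SD, n = 3 each). It then overlapped Calcrl in injured lungs, with a mean below those of Ace and Calcrl, and overlapped Ace and Calcrl in naive lungs, with a mean above both. Ace lay at 430 to 496 FPKM in injured lungs, above Calcrl at 316 to 380, whereas in naive lungs Ace at 286 to 312 FPKM and Calcrl at 247 to 308 shared part of their range. At the low end, Adm averaged 5.40 ± 2.55 FPKM in injured lungs and 5.32 ± 3.72 FPKM in naive lungs (SD, n = 3 each).

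**Figure D1:**
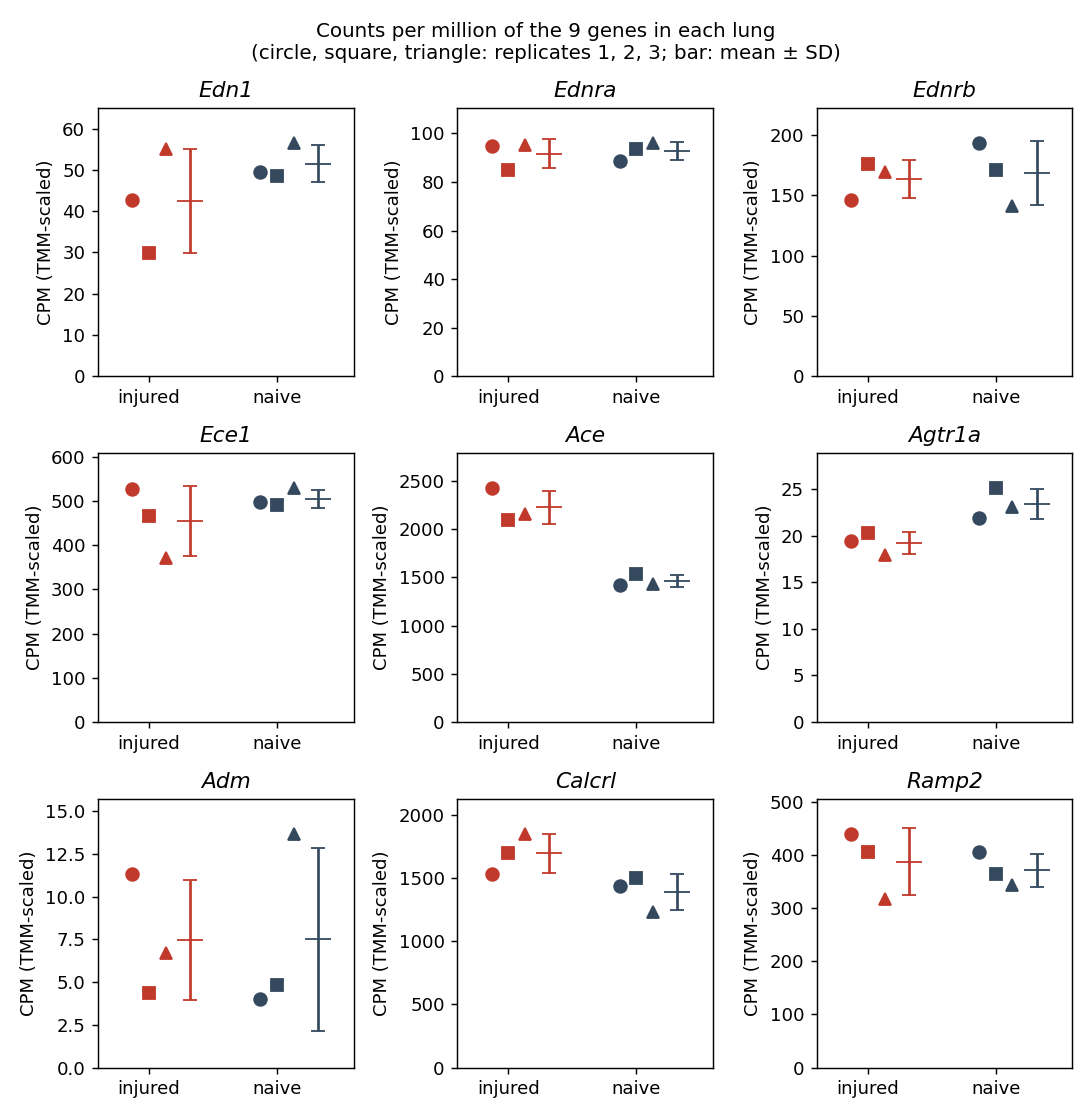
CPM of the 9 genes in each of the 6 lungs, injured on the left and naive on the right, with replicates 1 to 3 as circle, square and triangle and the mean ± SD beside them; every vertical axis starts at 0. The 3 injured lungs lie above the 3 naive lungs for Ace and Calcrl and below them for Agtr1a, and the groups overlap for the other 6 genes.

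Of the endothelin genes, 0 of 4 passed the test, and 0 of 4 had an unadjusted p under 0.05; DESeq2 and limma-voom also called 0. Edn1, at chromosome 13, 42301270 to 42307989 (mm10, as are all gene coordinates here), had 42.6, 29.8 and 54.9 CPM in injured replicates 1, 2 and 3, against 49.4, 48.5 and 56.6 CPM in naive replicates 1, 2 and 3. Injured replicate 2 was the lowest of the 6, and injured replicate 3 lay within the naive range. The log2 fold change of Edn1 was -0.28 ± 0.20 (SE, edgeR adjusted p = 0.561), with a 95% interval of -0.75 to 0.19. Dropping injured replicate 2 gave -0.08 and dropping injured replicate 3 gave -0.51, and neither value passed the test. Ece1 (chromosome 4, 137862237 to 137965229), the protease that releases endothelin-1, had 526, 467 and 369.9 CPM in injured lungs, against 497, 490.4 and 529 CPM in naive lungs. Its log2 fold change was -0.15 ± 0.13 (SE, edgeR adjusted p = 0.612), and with injured replicate 3, the lowest lung, left out it was -0.03.

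Both endothelin receptors overlapped between groups. Ednra (chromosome 8, 77663031 to 77724464), the receptor of vascular smooth muscle, had 94.9, 84.7 and 95.1 CPM in injured lungs, against 88.7, 93.6 and 96.1 CPM in naive lungs. All 6 values lay within a narrow band, and the log2 fold change was -0.02 ± 0.086 (SE, edgeR adjusted p = 0.943) with a 95% interval of -0.21 to 0.17. Ednrb (chromosome 14, 103814625 to 103844173), the clearing receptor, which in lung is high in the large capillary cells called aerocytes, had 146, 176 and 169.5 CPM in injured lungs, against 194, 171 and 141 CPM in naive lungs. The naive lungs spread on both sides of the injured ones, with a log2 fold change of -0.04 ± 0.13 (SE, edgeR adjusted p = 0.911) and an interval of -0.32 to 0.24. Within each library the ratio of Ednrb to Ednra in FPKM was 1.40, 1.88 and 1.62 in injured lungs and 1.98, 1.66 and 1.33 in naive lungs. The mean log2 ratio differed by -0.01 between injured and naive lungs (exact two-sided permutation test, p = 0.9, where 0.1 is the smallest possible with 3 against 3). Ednra shares exon positions with a transcript on the other strand, 4933431K23Rik, which has 196 counts in all, and Edn1 with the antisense gene Gm47118; whether counting used strand is not given in the sources used here. Signs of the Ednra and Ednrb differences changed when single lungs were left out.

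Of the angiotensin genes, Ace rose. Ace (ENSMUSG00000020681, chromosome 11, 105967945 to 105989964) had 2423, 2096 and 2157 CPM in injured replicates 1, 2 and 3, against 1425, 1533 and 1434 CPM in naive replicates 1, 2 and 3. The lowest injured lung stood above the highest naive lung, and the means differed by more than the spread in either group. Ace had a log2 fold change of 0.60 ± 0.10 (SE, edgeR adjusted p = 0.0133), with a 95% interval of 0.38 to 0.83. The authors' deposited table gives Ace a log2 fold change of 0.57 and an adjusted p of 2.56e-07. Ace was called in all 9 fits with another tool, scaling, filter, block or covariate. With 1 lung left out it was called in 3 of 6 fits: the log2 fold change was 0.54 (adjusted p = 0.0604) without injured replicate 1, 0.58 (adjusted p = 0.0508) without naive replicate 1 and 0.64 (adjusted p = 0.0618) without naive replicate 2, all by edgeR. The antisense gene Gm11651 within Ace had 1 count over the 6 libraries.

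Agtr1a (chromosome 13, 30336441 to 30382867), through which angiotensin II constricts vessels, had 19.5, 20.2 and 17.9 CPM in injured lungs, against 21.9, 25.1 and 23.03 CPM in naive lungs. Every injured lung lay below every naive lung, by a small step. For Agtr1a the log2 fold change was -0.28 ± 0.11 (SE, edgeR adjusted p = 0.219, unadjusted p = 0.0261), with an interval of -0.52 to -0.04, and it was called in 0 of the 15 other fits.

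Of the adrenomedullin genes, 0 of 3 passed by edgeR, DESeq2 or limma-voom, and 1 of 3 had an unadjusted p under 0.05 by edgeR. Adm (chromosome 7, 110627661 to 110629820) had 11.3, 4.39 and 6.71 CPM in injured lungs, against 4.00, 4.81 and 13.7 CPM in naive lungs. Naive replicate 3 was the highest of all 6 and injured replicate 1 came next, so the spread within each group exceeded the difference between them. For Adm the log2 fold change was -0.02 ± 0.58 (SE, edgeR adjusted p = 0.991), with an interval from -1.43 to 1.39 that spans more than a doubling in either direction. Without naive replicate 3 the log2 fold change was 0.76 (edgeR adjusted p = 0.366). In FPKM, Edn1 exceeded Adm by 2.23, 4.03 and 4.86 times in injured lungs and by 7.33, 5.98 and 2.46 times in naive lungs. The mean log2 ratio of Edn1 to Adm differed by -0.43 (exact two-sided permutation test, p = 0.5).

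Calcrl (chromosome 2, 84330626 to 84425411), the receptor body shared by adrenomedullin and calcitonin gene-related peptide (CGRP), had 1536, 1701 and 1851 CPM in injured lungs, against 1439, 1505 and 1233 CPM in naive lungs. The groups did not overlap, although injured replicate 1 was close to naive replicate 2. For Calcrl the log2 fold change was 0.28 ± 0.12 (SE, edgeR adjusted p = 0.253, unadjusted p = 0.0352), with an interval of 0.02 to 0.54, and it was called in 0 of the 15 other fits. Ramp2, which carries Calcrl to the membrane and makes it an adrenomedullin receptor, had 439.8, 406 and 317 CPM in injured lungs, against 405, 365 and 344 CPM in naive lungs. The groups overlapped, with a log2 fold change of 0.06 ± 0.13 (SE, edgeR adjusted p = 0.872) and an interval of -0.23 to 0.35. The Ramp2 row runs over chromosome 11, 101246028 to 101259546, and its length of 1478 bases is that of a read-through transcript into Vps25, while the longest coding Ramp2 transcript in GENCODE M21 has 1178 bases. Vps25 itself has 9 counts over the 6 libraries, and how reads shared by both genes were assigned is not given in the sources used here, so the counts, CPM, fold change and level per length of Ramp2 are uncertain.

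**Figure D2:**
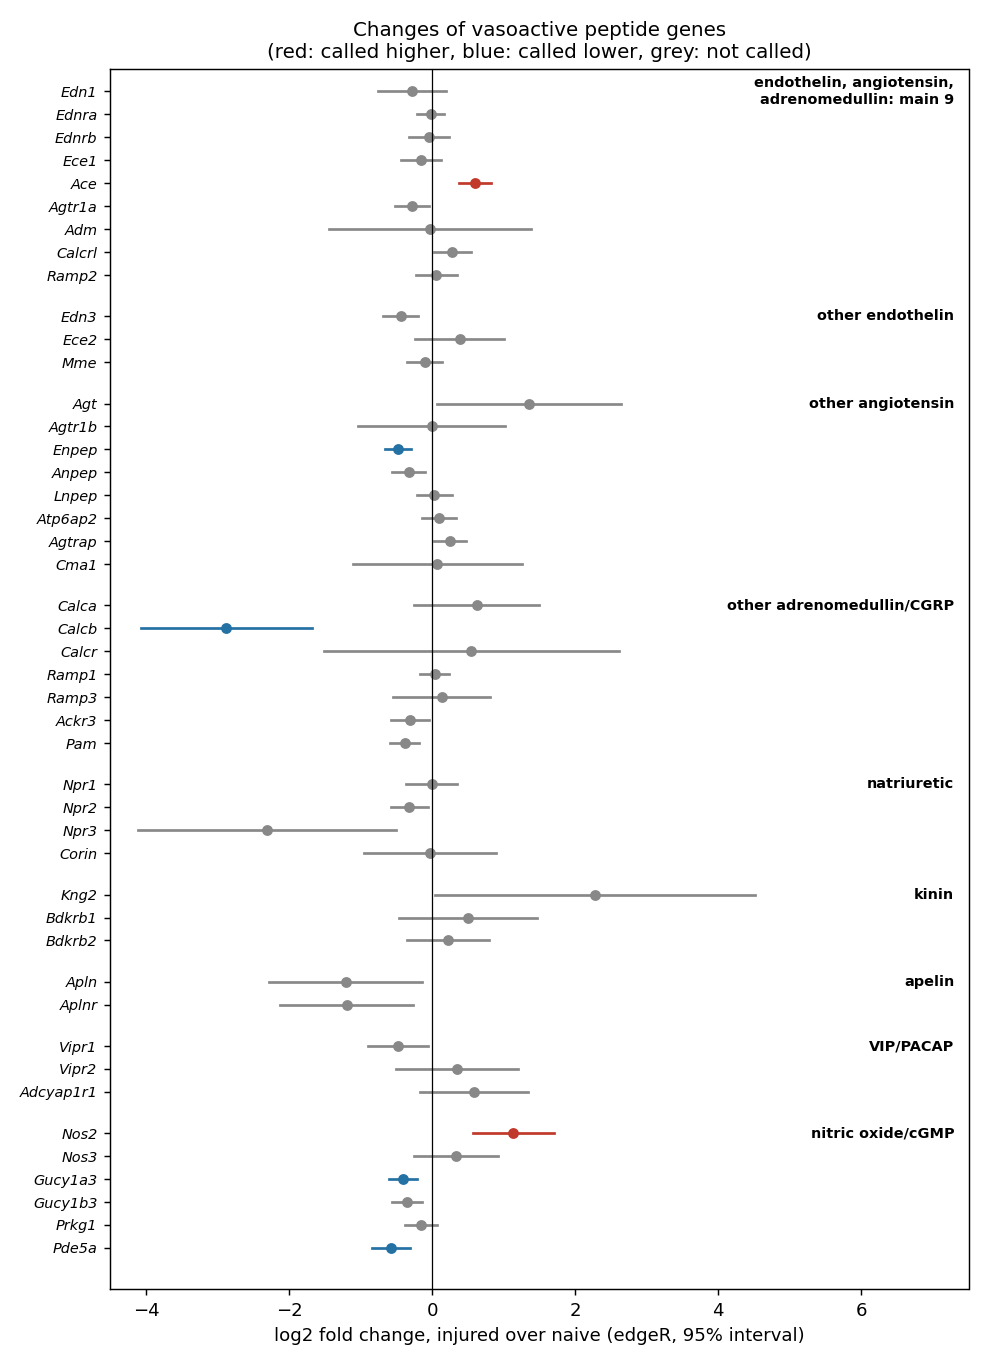
Log2 fold changes, injured over naive, with 95% intervals for the 9 genes and tested genes of related vasoactive pathways; red marks genes called higher, blue genes called lower and grey genes not called. Ace and Nos2 are called higher, Enpep, Calcb, Gucy1a3 and Pde5a lower, and the intervals of Npr3 and Adm are among the wide ones.

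Of 53 listed genes of related vasoactive pathways, 49 were in the table and 37 were tested. Of these 1 was called higher, the nitric oxide synthase Nos2, and 4 lower, Enpep, Calcb, Gucy1a3 and Pde5a, and the median log2 fold change of the 37 was -0.0066. Over all genes tested 2.16% were called higher and 0.956% lower. By edgeR 18 of the 37 had an unadjusted p under 0.05, against 2589 of all 15486. Among them were 4 of 9 other angiotensin genes, 3 of 7 related to adrenomedullin and 4 of 6 of the nitric oxide pathway. Enpep, or aminopeptidase A, which trims angiotensin II to angiotensin III, had 158, 175 and 163 CPM in injured lungs, against 236, 222 and 229 CPM in naive lungs. All injured lungs lay below all naive lungs, and Enpep was called lower (log2 fold change -0.47 ± 0.082, SE, edgeR adjusted p = 0.0160). Its call was lost without injured replicate 1, naive replicate 1 or naive replicate 2 (adjusted p up to 0.0851). The other angiotensin genes tested, 8 of 9, did not pass. Of these the most abundant per length were Atp6ap2, the prorenin receptor, at a log2 fold change of 0.10 ± 0.10, and Anpep, an aminopeptidase that shortens angiotensin III, at -0.33 ± 0.10 (SE, edgeR adjusted p = 0.700 and 0.145). Ren1, the renin gene, had at most 1 count in any library, and Agtr2 and Mas1 were also removed by the filter.

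Of 7 tested genes related to adrenomedullin, 1 was called, Calcb, which encodes a form of the dilator CGRP. Calcb had 8 counts over the injured and 77 over the naive libraries, at 0.149, 0.177 and 0.0422 CPM in injured lungs, against 0.773, 0.899 and 1.08 CPM in naive lungs. It was low everywhere and lower after injury (log2 fold change -2.88 ± 0.53, SE, edgeR adjusted p = 0.0204), and a filter of 1 CPM in 3 libraries removed it. Its call was lost without any 1 library except naive replicate 1, with an adjusted p up to 0.0815. Pam, the enzyme that amidates adrenomedullin and other peptides, had 316, 328 and 328 CPM in injured lungs, against 387, 457 and 425 CPM in naive lungs. It did not overlap between groups and missed the threshold (log2 fold change -0.38 ± 0.092, SE, edgeR adjusted p = 0.0580), and the scavenging receptor Ackr3 was at -0.31 ± 0.12. Of 3 other endothelin genes tested, 0 passed, with Edn3, a peptide that prefers Ednrb, at -0.44 ± 0.11 and Mme, or neprilysin, at -0.10 ± 0.11 (SE, edgeR adjusted p = 0.0700 and 0.710). Unadjusted p fell under 0.05 for 1 of these 3. DESeq2 and the edgeR fit with no filter on low counts called Edn3 and Pam lower, the fit with a clock gene score as covariate called Edn3 lower, and limma-voom called neither.

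In the nitric oxide pathway, which raises cyclic GMP to relax vessels, 1 of 6 tested genes was called higher and 2 lower. Nos2, the inducible nitric oxide synthase, had 10.8, 8.42 and 15.2 CPM in injured lungs, against 3.90, 5.61 and 6.17 CPM in naive lungs. It was called higher (log2 fold change 1.14 ± 0.25, SE, edgeR adjusted p = 0.0458), but not by limma-voom, with a clock gene score as covariate, and among the fits with 1 lung left out it kept its call only when injured replicate 2 was the lung dropped (adjusted p up to 0.193 over all these fits). Gucy1a3, a subunit of the nitric oxide receptor guanylate cyclase, had 267, 256 and 249.95 CPM in injured lungs, against 339.6, 322 and 362 CPM in naive lungs (log2 fold change -0.40 ± 0.086, SE, edgeR adjusted p = 0.0354). Pde5a, which breaks down cyclic GMP, had 274, 236 and 248 CPM in injured lungs, against 317, 406 and 404 CPM in naive lungs (log2 fold change -0.57 ± 0.12, SE, edgeR adjusted p = 0.0300). Neither gene overlapped between groups and both were called lower. The call of Gucy1a3 was lost without any 1 library (adjusted p up to 0.114) and that of Pde5a without any 1 except naive replicate 1 (adjusted p up to 0.138). The partner subunit Gucy1b3, at -0.35 ± 0.095, and the cyclic GMP-dependent kinase Prkg1, at -0.15 ± 0.10, did not pass (SE, edgeR adjusted p = 0.0902 and 0.508). DESeq2 called Gucy1b3 lower, and limma-voom did not.

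Natriuretic, kinin, apelin and VIP genes gave 0 calls by edgeR among 4, 3, 2 and 3 tested genes, with 2, 1, 2 and 1 at an unadjusted p under 0.05. DESeq2 called 1 of these genes, Npr3, and limma-voom called 0. The natriuretic peptide receptors Npr1, at -0.0030 ± 0.16, and Npr2, at -0.32 ± 0.12 log2 units, had the highest FPKM of their list averaged over all 6 libraries, although in naive lungs alone Npr3 averaged more. Npr3, the clearance receptor for natriuretic peptides, was named after its values were seen: it had 62.4, 57.9 and 51.9 CPM in injured lungs, against 101, 216 and 535 CPM in naive lungs. Every injured lung lay below every naive lung, but the naive lungs differed several-fold from each other. The log2 fold change of Npr3 was -2.31 ± 0.68 (SE, edgeR adjusted p = 0.206), and -1.47 without naive replicate 3. The dilator peptide gene Apln had 36.5, 25.3 and 41.0 CPM in injured lungs, against 47.9, 64.2 and 125 CPM in naive lungs, and its receptor Aplnr had 26.6, 44.8 and 73.6 CPM in injured lungs, against 101, 118 and 113 CPM in naive lungs. Both were apart between groups at log2 fold changes of -1.21 ± 0.42 and -1.19 ± 0.37 and missed the threshold (SE, edgeR adjusted p = 0.247 and 0.200). Aplnr was called lower without injured replicate 3, and Apln was called lower with a clock gene score as covariate. The bradykinin receptors Bdkrb2, at 0.22 ± 0.25, and Bdkrb1, at 0.51 ± 0.42, and the VIP receptors Vipr2, at 0.35 ± 0.35, and Vipr1, at -0.47 ± 0.19 log2 units, did not pass; Vipr2 was called higher without naive replicate 3.

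Cell type markers differed in direction from each other. The 10 endothelial markers summed to 4073 to 4742 CPM in injured lungs and 4811 to 5203 CPM in naive lungs, with 0 called and a median log2 fold change of -0.18. Their log2 fold changes ran from -0.27 to 0.21, so the lower sum was not an even fall of its members. Of 6 general capillary markers 1, Tmem100, was called lower, and of 6 aerocyte markers 0. Of the 7 monocyte and macrophage markers tested, 5 were called higher, with a sum of 412 to 442 CPM in injured lungs and 239 to 289.99 CPM in naive lungs. Of 10 neutrophil markers 6 were called higher, with a sum of 719 to 1271 CPM in injured lungs and 60.9 to 90.4 CPM in naive lungs. Smooth muscle markers had 1 lower call among 7, Actg2, and a median of -0.42, while pericyte markers had 0 calls among 8 and a median of -0.12. Of the 7 smooth muscle markers, 5 had an unadjusted p under 0.05 by edgeR, and DESeq2 called 2 lower. Lymphatic endothelial, fibroblast, heart muscle and alveolar epithelial markers had 0, 1, 0 and 0 calls among 6, 9, 8 and 7, the fibroblast call being Npnt, which was lower. Unadjusted p fell under 0.05 for 1 endothelial, 3 aerocyte, 0 pericyte, 3 lymphatic, 1 heart muscle and 1 alveolar epithelial marker. In these 6 lists DESeq2 called 1 lymphatic marker higher and 1 lower and 1 alveolar epithelial marker higher, and limma-voom called 0. No marker was at 0 in all 6 libraries.

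Relative to the summed endothelial markers, Ace was higher in injured lungs: its log2 ratio to them was -0.97, -1.15 and -0.92 in injured lungs, against -1.79, -1.65 and -1.86 in naive lungs. The groups did not overlap and differed by 0.76 (exact two-sided permutation test, p = 0.1, the smallest possible). Ace was higher and the endothelial sum lower in every injured lung than in every naive lung. The ratio therefore had to separate the groups, and its p-value is no further evidence. Relative to the summed monocyte and macrophage markers the log2 ratio of Ace was 2.48, 2.25 and 2.39 in injured lungs, against 2.42, 2.40 and 2.58 in naive lungs. These values overlapped and differed by -0.10 (exact two-sided permutation test, p = 0.4). The markers in this sum changed unequally, as 2 named after their values were seen show. Itgam averaged 98.9 CPM in injured and 21.7 CPM in naive lungs, and its log2 fold change of 2.19 was the largest of the 7. No ratio was taken without Itgam, so how far the likeness of the groups rests on this gene was not tested. Csf1r, the most abundant of them in CPM, averaged 151 CPM in injured and 144 CPM in naive lungs and overlapped between groups. No ratio to the neutrophil markers was taken. The share of macrophages, which can also express Ace, in its rise was not tested. Calcrl relative to the endothelial markers was higher in every injured lung, by 0.44 on average, and Agtr1a was lower in every injured lung, by 0.13 on average (exact two-sided permutation tests, p = 0.1 each). Since Calcrl itself was higher in every injured lung, its ratio too had to separate the groups. For Agtr1a the groups nearly touched, at a log2 ratio of -7.83 in injured replicate 3 and -7.82 in naive replicate 3. The other 6 genes overlapped between groups on this scale.

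**Figure D3:**
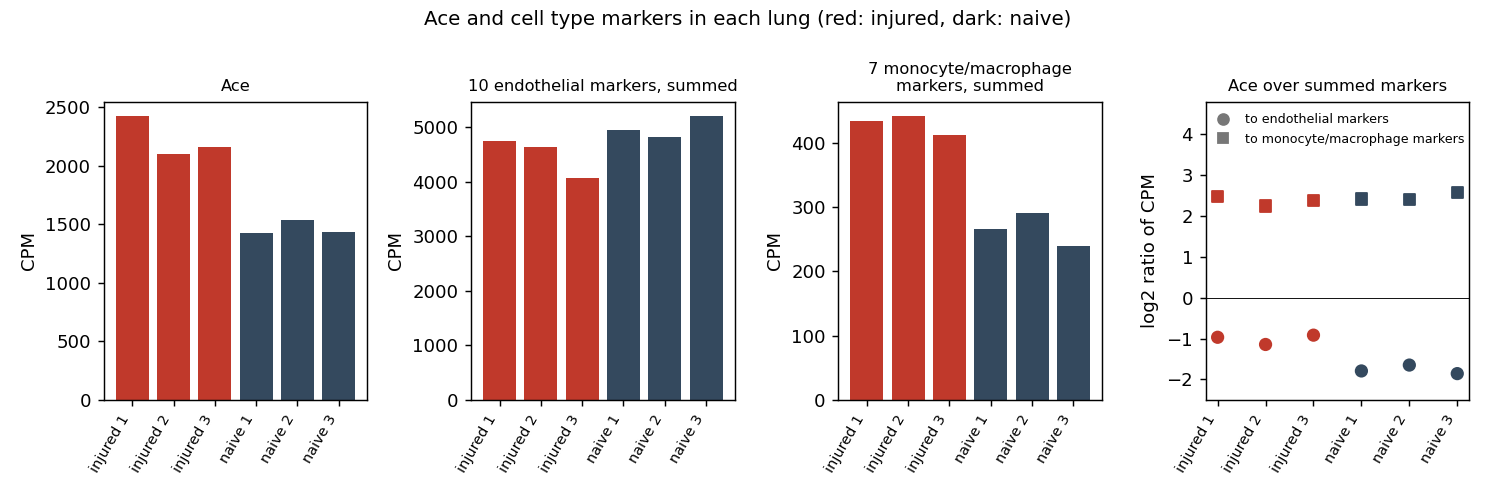
CPM of Ace, of 10 endothelial markers summed and of 7 monocyte and macrophage markers summed in each lung, and the log2 ratio of Ace to either sum, with injured lungs in red on the left and naive lungs in dark blue on the right. Ace and the macrophage sum are higher in all injured lungs, the endothelial sum is lower, and the ratio of Ace to the macrophage sum lies between 2.25 and 2.58 in all 6 lungs.

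Profiles were compared with 11263 other tested genes whose mean CPM reached 5, leaving out predicted genes (Gm, Rik, AC and BC names). The profiles most like that of Ace over the 6 libraries were those of Itgb2, an integrin chain of leukocytes, Hcls1, a cytoskeletal adaptor of blood cells, and Fam111a. Their log2 CPM, centred on each gene's mean, differed from that of Ace by a root mean square of 0.046, 0.051 and 0.051. Their log2 fold changes were 0.56, 0.66 and 0.52 (edgeR adjusted p = 0.0103, 0.0118 and 0.0250). With 6 libraries in 2 groups this likeness rests largely on the group difference.

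Clock genes separated the lungs in another way. The mean standardised level of 13 clock genes, with the sign of Arntl, Npas2 and Clock reversed, was -0.66, -0.17 and -0.78 in injured lungs, against 0.99, 1.31 and -0.69 in naive lungs, so naive replicate 3 lay with the injured lungs. By edgeR 0 of the 13 were called and 3 had an unadjusted p under 0.05, by DESeq2 3 were called lower (Ciart, Nr1d1 and Per2, named after their values were seen), and by limma-voom 0. With this score as a covariate the log2 fold change was 0.17 for Ednrb, -0.51 for Edn1, -0.80 for Adm and 0.42 for Calcrl, of which none passed. Naive replicate 3 was also the naive lung with the highest Adm, Npr3 and Apln. Whether the hour of collection had a part in these values was not tested.

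**Figure D4:**
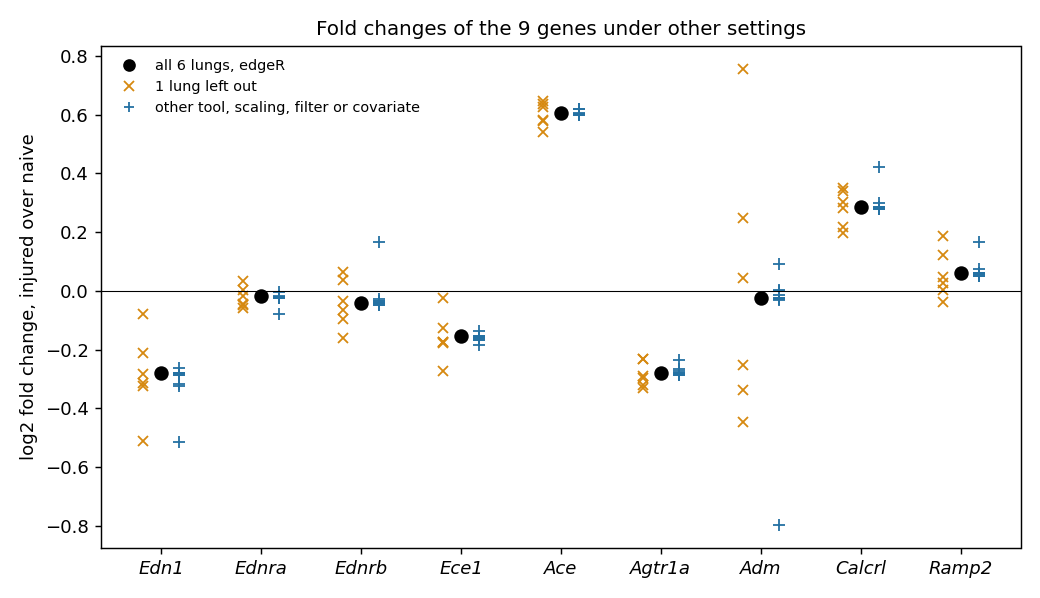
Log2 fold changes of the 9 genes, injured over naive, with all 6 lungs (black), with each lung left out in turn (orange crosses) and with another tool, scaling, filter, block or covariate (blue plus signs). Ace stays between 0.54 and 0.65, whereas Adm ranges from -0.80 to 0.76 and Ednra, Ednrb and Ramp2 lie on both sides of 0.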

How the data were processed

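The labels describe RNA-seq of 6 left lungs, with NEBNext Ultra II RNA libraries and paired-end reads sequenced on a NovaSeq instrument per the labels' protocols. Per the submitters' processing notes, the tools were STAR and STAR-Fusion, HTSeq, edgeR and DESeq2, and the build was mm10. Their roles, their versions and the strand setting were not given in the sources used here. The deposited table holds the authors' read counts per gene, their FPKM values, and a signal column per library. The deposited FPKM values followed from counts, gene length and column totals, and the deposited signal was the counts divided by 1 factor per library, both to a relative difference under 1e-06. The authors' log2 fold changes and the authors' p-values are quoted only where named.

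Counts were filtered by filterByExpr, scaled by TMM and tested in R 4.3.3 with the quasi-likelihood test of edgeR 4.0.16 (robust fit, limma 3.58.1), in a model of group alone. Two-sided p-values had Benjamini-Hochberg adjustment over 15486 genes, and DESeq2 1.42.0 was an alternative. Intervals are 95% intervals from the edgeR SE. On simulated counts edgeR recovered 73 of 100 changes of 1 log2 unit and 98 of 100 changes of 2 log2 units. Of its 189 calls 18 were false, a share above the nominal rate. Changes below 1 log2 unit, such as that of Ace, were not simulated. Library totals were 18913487 to 34986276 counts. Each lung was taken as 1 mouse, since the labels list separate left lungs; if that is wrong, p-values measure technical spread. FPKM levels use the deposited gene length.

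The 9 genes and the lists of related genes and markers were chosen with earlier results of these data known. Named are all 9 genes, every gene of the related pathway lists that was called, the 2 per pathway list with the highest mean FPKM that were not, and the 3 genes closest in profile to a called one. Marker lists are given by counts, medians and sums, with a called marker named where it was the only call of its list. Other names outside the rule are said to be so or are listed as not tested. A planned comparison is not reported here. Symbols missing from the table (Mrgprd, Apela, Adgre1 and the newer names of Gucy1a3 and Gucy1b3) were not measured under those names. Ratios to summed markers were added after the data were seen.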

Additional observations from a re-analysis of the deposited data

How the results depend on the processing

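Ace remained the only called gene of the 9 in 9 of 9 other fits (DESeq2, limma-voom, scaling by DESeq2 size factors or by library size, a filter of 1 CPM in 3 libraries or no filter, without the 20 most abundant genes, the replicate block, and the clock score). Leaving out 1 lung gave 0 to 1 higher and 0 lower calls among the 9. With all lungs 3 of the 9 had an unadjusted p under 0.05 by edgeR, against 2589 of the 15486 genes tested. Over all genes the counts were 334 higher and 148 lower; higher calls numbered 585 by DESeq2 and 145 to 333 with 1 lung left out, and lower calls 417 by DESeq2, 269 with no filter and 48 to 146 with 1 lung left out. Among related genes the 1 higher call became 0 by limma-voom, 0 with the clock score and 0 to 1 with 1 lung left out, and the 4 lower calls became 8 by DESeq2 and 0 to 2 with 1 lung left out. Signs that changed belonged to genes that were not called. The log2 fold change of Adm was 0.00099 with library size alone, 0.0034 by limma-voom, 0.092 under the replicate block and -0.44 to 0.76 with 1 lung left out. That of Ednrb was 0.17 with the clock score and -0.16 to 0.064 with 1 lung left out, that of Ednra -0.057 to 0.034 and that of Ramp2 -0.039 to 0.19. The Ednrb to Ednra log2 ratio differed by -0.16 to 0.12 with 1 lung left out, and the Edn1 to Adm ratio kept its sign. The causes were not tested.

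Lungs with the same replicate number were correlated at 0.11, -0.08 and 0.20 in their deviations from the group means, and injured replicate 2 correlated best with naive replicate 1, so the numbers were not taken as pairs. With the replicate block, 413 genes were called higher and 208 lower, Ace kept its call, and Gucy1a3 had an adjusted p of 0.0544. Adm, with 91 to 467 counts per library and a wide spread between lungs, had an interval from -1.43 to 1.39, so changes within it cannot be told from none.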

Other observations

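Several peptide genes were removed by the filter on low counts. Adm2, which encodes a relative of adrenomedullin, had 23 counts over the injured and 2 over the naive libraries. Adm2, Nppa and Nppb were named after their values were seen. Nppb, which encodes B-type natriuretic peptide, stood at 0.496, 0.354 and 0.169 CPM in injured lungs and at 0, 0 and 0.0293 CPM in naive lungs. Nppa, which encodes atrial natriuretic peptide, had 0, 0.0443 and 4.30 CPM in injured lungs and 0, 3.65 and 0.439 CPM in naive lungs. The heart muscle markers summed to 138 to 699 CPM in injured lungs and to 499 to 901 CPM in naive lungs, and their part in the Nppa counts was not tested.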
